A study of Mus musculus with 4 samples.

Results

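Neuregulins are growth factors that neurons and glia use to signal to each other, and the ErbB proteins are the receptor tyrosine kinases that bind them. Binding makes receptor chains pair: Erbb4 can bind neuregulins and signal, Erbb3 binds them but has little kinase activity of its own, and Erbb2 binds no known ligand and acts as the partner of the others. Egfr, the founding member of the family, answers to another set of ligands that includes EGF, TGF-alpha and HB-EGF. In brain the pathway is known for the wiring of inhibitory interneurons and for the growth and myelination of oligodendrocyte lineage cells.

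The genes examined were the 3 ligands Nrg1, Nrg2 and Nrg3 and the 4 receptors Erbb2, Erbb3, Erbb4 and Egfr, chosen by symbol, 7 of the 46983 genes in the count matrices. All 7 were present as a single row each. They were read in single-nucleus RNA-seq of brain from male C57Black/6 mice aged 3 months, in 1 library of sham control tissue and 1 library each from day 1, day 3 and day 7 after MCAO. MCAO closes the middle cerebral artery, here permanently, to model stroke. Each library came from a single suspension of 3 pooled hemispheres, so animals cannot be separated and nuclei are not replicates. No p-value is given for any comparison, and the intervals below cover counting error only.

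The labels describe the control tissue both as sham control and as intact cortex, while the design text speaks of forebrain hemispheres. Striatal and subcortical neurons were present in the control library too. The study's own nucleus numbers by time correspond to the deposited libraries only if day 3 and day 7 are exchanged, so values given for those days follow the deposited labels and carry that doubt. Nucleus numbers were the only measure compared for this. The libraries held 23285489 to 42963698 UMIs, of which 51.9% to 60.4% lay in called nuclei, and 1019 to 3079 nuclei per library were kept (7782 in all). The day 1 library had the fewest nuclei and the most UMIs per nucleus, with a median of 11035 against 5466 to 7047 in the others. Pairs of libraries shared 0 to 3 nucleus barcodes.

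Nuclei were clustered without the members and sorted by fixed markers into 13 named classes with at least 20 nuclei in every library. They are called "-like" since the names rest on markers alone. A level below is the number of UMIs of a gene per 1000000 UMIs of its class and library (CPM), and the ambient ceiling is the most CPM that free RNA in the droplets could have given that class. Where 4 values are listed they follow the order sham control, day 1, day 3, day 7. A ratio to sham control was read only where both sums together held at least 20 UMIs, and was called higher or lower where it was at least 1.5-fold in either direction with a 95% interval that left out 1.

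Nrg3 marked neurons, most of all glutamatergic ones. Nrg3, on chromosome 14 (GRCm38, 38368952 to 39473088, minus strand), encodes a membrane-bound ligand of Erbb4 and spans 1104 kb. In deep-layer cortical neuron-like nuclei it stood at 7640.4, 7186, 7383 and 7353 CPM. These 4 values did not overlap with those of any other of the 13 classes. Outside them, the unnamed cluster led by Tshz2, Gm26883 and Vwc2l (46 nuclei) lay above deep-layer-like nuclei in every library. Dentate granule-like nuclei reached 7562 CPM in sham control, from 5 nuclei. The next 5 classes, glutamatergic and subcortical, overlapped with their neighbours in the order, with means from 5179 to 6342 CPM over the 4 libraries. After thinning every nucleus to 1000 UMIs, 98.3% to 100% of deep-layer-like nuclei still held an Nrg3 UMI.

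Striatal projection neuron-like nuclei were the neuronal class with the least Nrg3. They held 1903, 2283, 1911 and 1969.9 CPM, below every glutamatergic and interneuron-like class and above their ambient ceiling of up to 1242 CPM. Oligodendrocyte precursor cell (OPC)-like nuclei carried 1410 to 1727 CPM over the libraries, with a ceiling of up to 1166. In astrocyte-like and oligodendrocyte-like nuclei the ranges were 514 to 1019 and 382 to 806 CPM, with ceilings of up to 1061 and 712 CPM. Nrg3 in these glia could not be told from free RNA at this depth, except for the oligodendrocyte-like value at day 3. That value, 806 CPM, was above its ceiling of 712 CPM, but its call, given below, was lost with more doublets removed.

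**Figure D1:**
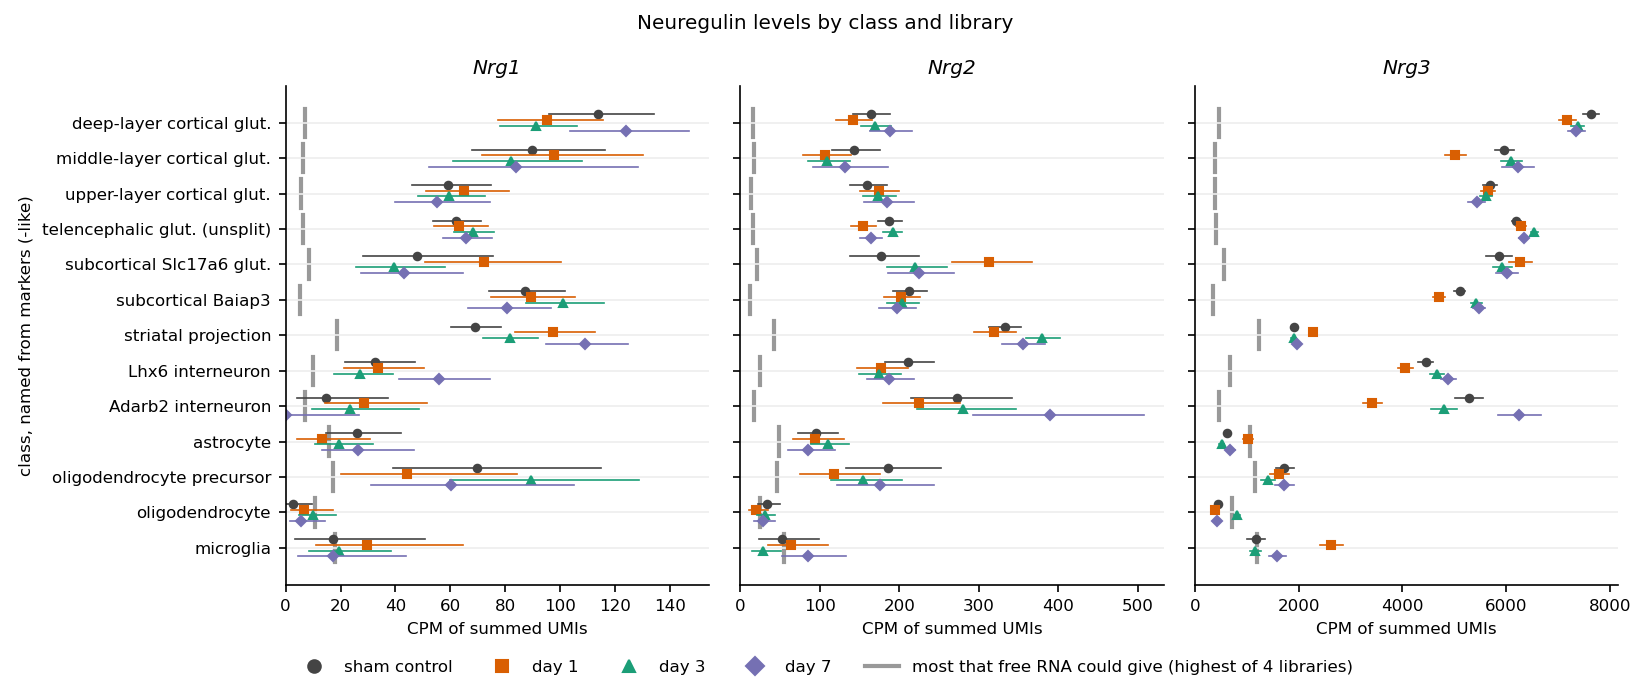
Level of Nrg1, Nrg2 and Nrg3 (CPM of summed UMIs, linear axes that differ between panels) in the 13 named classes. Each point is 1 library with its 95% Poisson interval and the grey bar is the highest ambient ceiling of the 4 libraries. Nrg3 lies between 3420.0 and 7640.4 CPM in every glutamatergic, Baiap3 and interneuron-like class, while Nrg2 has its highest mean in striatal projection neuron-like nuclei (319.5 to 380.2 CPM).

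Nrg2 had its highest mean in striatal projection neuron-like nuclei. Nrg2, a ligand close in structure to Nrg1, lies on chromosome 18 and spans 180 kb. Striatal projection neuron-like nuclei had 333, 319.5, 380.2 and 356 CPM. Adarb2 interneuron-like nuclei followed with 224 to 389 CPM, a range that overlapped with the striatal one. Oligodendrocyte-like nuclei were lowest of the 13 classes, at 20.2 to 34.0 CPM with a ceiling of up to 24.4.

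Nrg1 was spread over several neuronal classes whose ranges overlapped. Nrg1, on chromosome 8 (31814551 to 32884029, minus strand), encodes the best known neuregulin, with forms that promote myelination and synapse formation, and spans 1069 kb. The highest mean of the 13 classes was in deep-layer-like nuclei, with 114, 95.04, 91.3 and 124 CPM. Baiap3 subcortical-like, striatal projection neuron-like and middle-layer-like nuclei had means of 89.4, 89.2 and 88.4 CPM, each overlapping with the next. Among glia, OPC-like nuclei had 44.3 to 89.5 CPM, with 9 to 29 UMIs per library, whereas mature oligodendrocyte-like nuclei had 2.62 to 9.94 CPM, with a ceiling of up to 10.7.

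Levels of different ligands were compared per length. Per 100 kb of gene span, deep-layer-like nuclei had 669 CPM of Nrg3 (651 to 692 over libraries), 92.3 of Nrg2 (78.8 to 105) and 9.91 of Nrg1 (8.53 to 11.6). In striatal projection neuron-like nuclei Nrg2, at 193 (178 to 212), and Nrg3, at 183 (172 to 207), overlapped on this scale. The scale divides by the whole span and does not separate exons from introns. Whether UMIs rise in proportion to span was not tested, so it does not rank transcript numbers.

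Erbb4 was highest in interneurons and came next in the oligodendrocyte lineage. Erbb4, the neuregulin receptor best known from parvalbumin interneurons, lies on chromosome 1 (68032186 to 69108059, minus strand) and spans 1076 kb. Adarb2 interneuron-like nuclei had 9650.2, 6397, 9721 and 6725 CPM. Lhx6 interneuron-like nuclei had 6162, 5212, 6425 and 5271 CPM, a range that just overlapped with that of the Adarb2 class. An unnamed neuronal cluster led by Npffr2, Chst9 and Foxp2 reached 5064 to 6028 CPM and overlapped with the Lhx6 class.

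Below these came the oligodendrocyte lineage, each step apart from the next. OPC-like nuclei held 3102, 3181, 2829 and 3912 CPM of Erbb4, and an Erbb4 UMI was found in 92.6% to 97.8% of them after thinning. Oligodendrocyte-like nuclei held 1838, 1876, 2116 and 2032 CPM, far above a ceiling of up to 148 CPM. The lineage therefore carried Erbb4 in every library, with no value overlapping between precursor-like and mature-like nuclei. Within the mature class, the cluster led by Slc13a1 and Mog had 1958 to 2444 CPM and the cluster led by Anln and Prr5l 1141 to 1705 CPM, so their ranges were apart, although only 37 nuclei of the second cluster came from day 1.

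The Lhx6 class was not uniform for Erbb4. Its cluster led by Eya4 and Kcnmb2 had 9726, 7661, 11006 and 8009 CPM. The cluster led by Sst and Npy, genes of somatostatin interneurons, had 2051, 878, 1129 and 819 CPM. The third, led by Kcnmb2 and Fign, had 1376 to 2474 CPM. Thus the cluster led by Eya4 lay above both others in all 4 libraries, at a level overlapping with that of the Adarb2 class. Some of these values rest on few nuclei, down to 9 of the Sst-led cluster and 7 of the Fign-led cluster in a library.

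**Figure D2:**
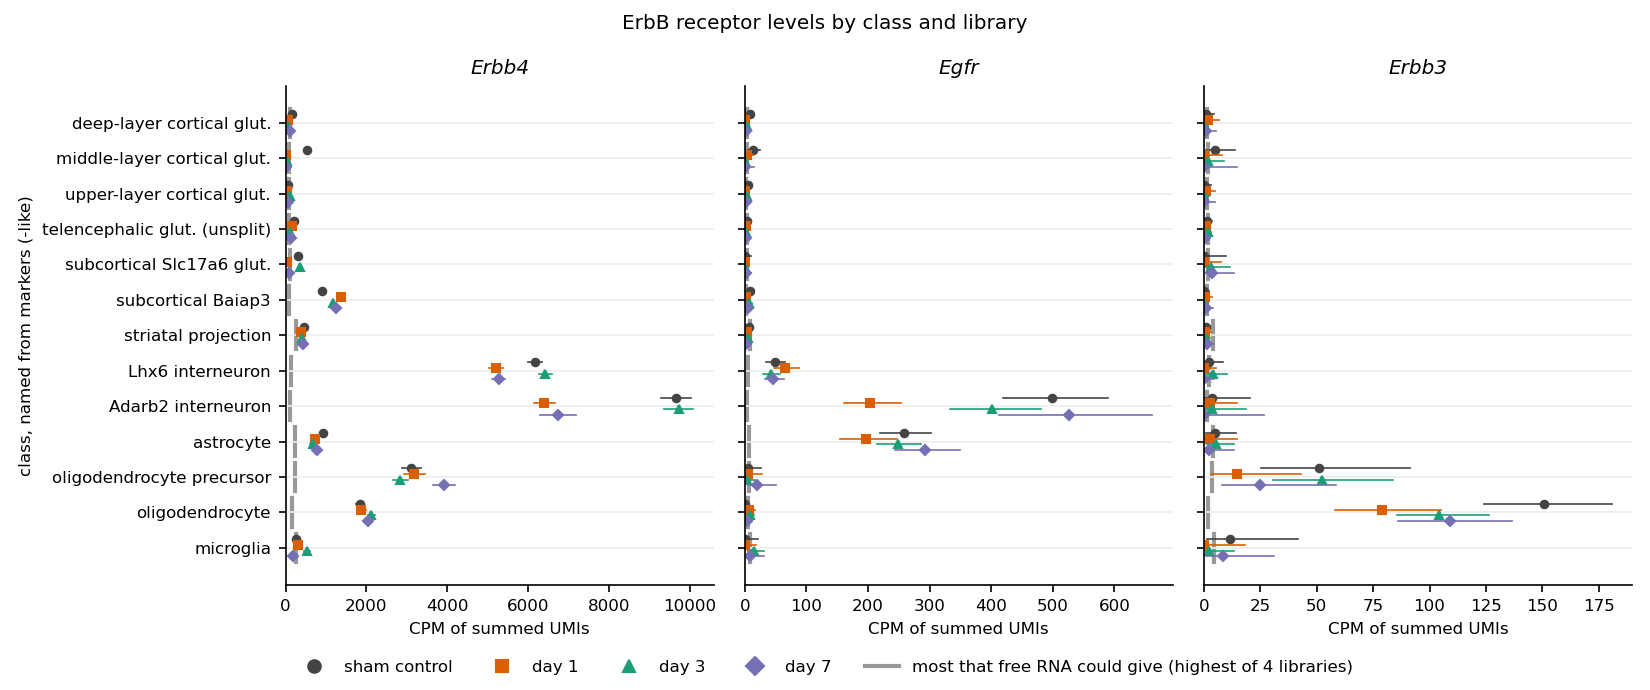
Level of Erbb4, Egfr and Erbb3 (CPM of summed UMIs, linear axes that differ between panels) in the 13 named classes, with the 95% Poisson interval of each library and the highest ambient ceiling as a grey bar. Erbb4 lies between 5212 and 9721 CPM in both interneuron-like classes, Egfr is highest in Adarb2 interneuron-like and astrocyte-like nuclei, and among these classes Erbb3 exceeds its highest ceiling in all 4 libraries only in oligodendrocyte-like and OPC-like nuclei.

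Among the 13 classes, Egfr was highest in an interneuron class and in astrocytes. Egfr, on chromosome 11 (16752203 to 16918158, plus strand), spans 166 kb and is known as a mitogen receptor of neural progenitors and astrocytes. Adarb2 interneuron-like nuclei had 499, 203, 401 and 526 CPM, from 137, 78, 119 and 73 UMIs, with a ceiling of at most 3.04 CPM. Astrocyte-like nuclei had 258, 196, 248 and 293 CPM. The ranges of the 2 classes overlapped because of the day 1 value of the Adarb2 class alone. Lhx6 interneuron-like nuclei followed at 41.9 to 65.8 CPM, with 160 of 168 UMIs in the Eya4-led cluster (73.9 to 109 CPM), while the Fign-led cluster had no Egfr UMI in any of its 50 nuclei. That count of 0 allows up to 6% of nuclei with an Egfr UMI at this depth and sets no limit on the nuclei that express the gene. In every other of the 13 classes Egfr stayed at or below 20.0 CPM. Outside them, fibroblast-like meningeal nuclei, with 3 to 29 nuclei per library, had 301 to 808 CPM, and the day 3 and day 7 values there were above those of every one of the 13 classes.

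**Figure D3:**
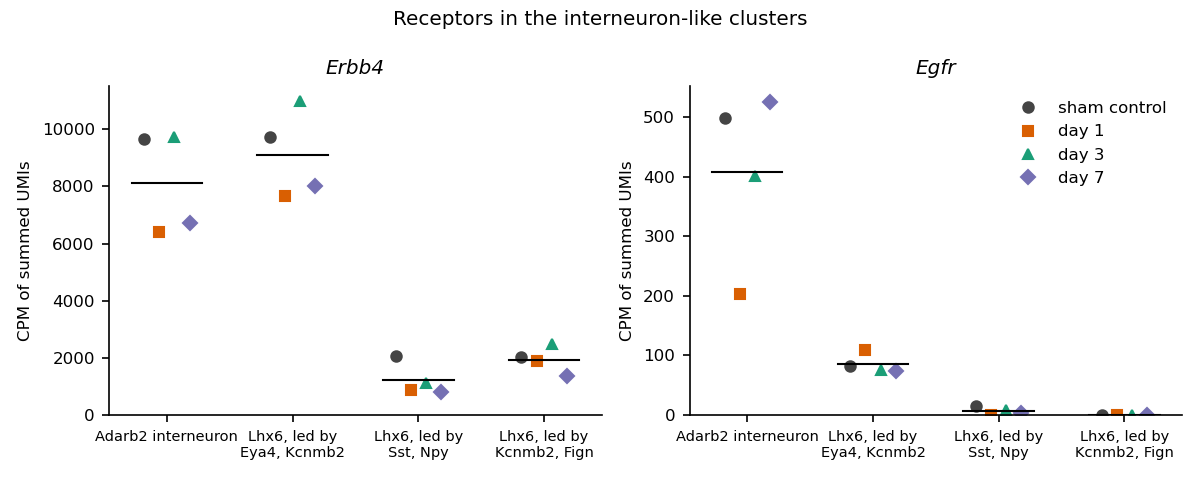
Erbb4 and Egfr (CPM of summed UMIs, axes from 0) in the Adarb2 interneuron-like cluster and the 3 clusters of the Lhx6 class. Each point is 1 library and the bar is their mean. Erbb4 in the Eya4-led cluster (7661 to 11006 CPM) lies above the Sst-led and Fign-led clusters in every library, and Egfr is highest in the Adarb2 class.

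Erbb3 was an oligodendrocyte lineage gene. Erbb3, on chromosome 10 (128567523 to 128589652, minus strand), spans only 22.1 kb. Oligodendrocyte-like nuclei had 151, 79.1, 104 and 109 CPM, and they held 69.5% to 77.8% of all Erbb3 UMIs in the nuclei of a library. OPC-like nuclei had 51.1, 14.8, 52.4 and 25.04 CPM from only 3 to 17 UMIs, and the 2 ranges were apart. Per 100 kb of span, oligodendrocyte-like nuclei had 501 CPM of Erbb3 (357 to 680) and 183 of Erbb4 (171 to 197), the reverse of their order in CPM. That reversal depends on the spans used as divisors and does not rank transcript numbers.

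Erbb2, the partner receptor without a ligand, was close to undetected. Erbb2 lies on chromosome 11 (98412470 to 98437716, plus strand) and spans 25.2 kb. All nuclei together gave 31 Erbb2 UMIs, 8, 2, 17 and 4 by library. Astrocyte-like nuclei held 11 of them, from 2, 1, 7 and 1 UMIs, and endothelial-like nuclei 8. Oligodendrocyte-like, microglia-like and both interneuron-like classes held none, which allows levels of up to 0.886 to 2.94 CPM, depending on the class. No ratio to sham control could be read for Erbb2 in any class.

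The genes whose class pattern was most like each member were found by the correlation of log2(mean CPM + 1) over 15 groups of nuclei (the 13 classes and 2 unnamed clusters), among 13929 genes. For Nrg3 they were Gm20642 (r = 0.99), Nrg3os (0.99) and Gm20641 (0.97), all transcripts from the other strand within the Nrg3 locus. The strand setting of the counting is not given in the sources used here, so their UMIs (21454, 24197 and 845 against 283074 of Nrg3) cannot be fully told apart from those of Nrg3. Likewise Egfr was most like Egfros (0.95), an antisense neighbour with 202 UMIs against 1642 of Egfr, then Hapln1 (0.92), a perineuronal matrix linker, and Frem1 (0.86). Erbb3 was most like Ninj2 (0.96), Abhd17b (0.96) and Plxnb3 (0.95), and Erbb4 most like Sox2ot (0.96), Gm38505 (0.91) and Gad1 (0.88), the enzyme that makes GABA. Nrg1 came closest to A930011G23Rik (0.89), Gm16226 (0.88) and Prkg1 (0.88), and Nrg2 to Gm28294 (0.95), Rgs7bp (0.94) and Gm26691 (0.94). Among the members themselves, Nrg3 and Erbb3 were the most opposed pair (r = -0.75). These correlations carry no test, since the 15 groups come from the same 4 libraries and their genes were read in the same nuclei.

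Against sham control, 7 members in 13 classes make 91 pairs, of which 54, 57 and 55 had enough UMIs to be read at day 1, day 3 and day 7. At day 1, 4 pairs were higher and 8 lower, where the background over all genes was 4.85% called higher and 4.17% lower. At day 3, 3 were higher and 3 lower, against a background of 3.2% higher and 3.9% lower. At day 7, 2 were higher and 5 lower, against 3.36% and 4.87%. In shares of the pairs read, the higher calls came to 7.41%, 5.26% and 3.64% on the 3 days and the lower calls to 14.8%, 5.26% and 9.09%. All 6 were nominally above the background, but 1 call fewer would have put the lower share at day 3 and the higher share at day 7 under it, and both are close to the background. Of the lower calls, 5 of the 8 at day 1 and 4 of the 5 at day 7 concerned Erbb4. The median log2 ratio of the members was -0.12, -0.02 and -0.06 at day 1, day 3 and day 7, beside 0.00, -0.03 and -0.06 over all genes. The 3 comparisons share the sham control library.

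**Figure D4:**
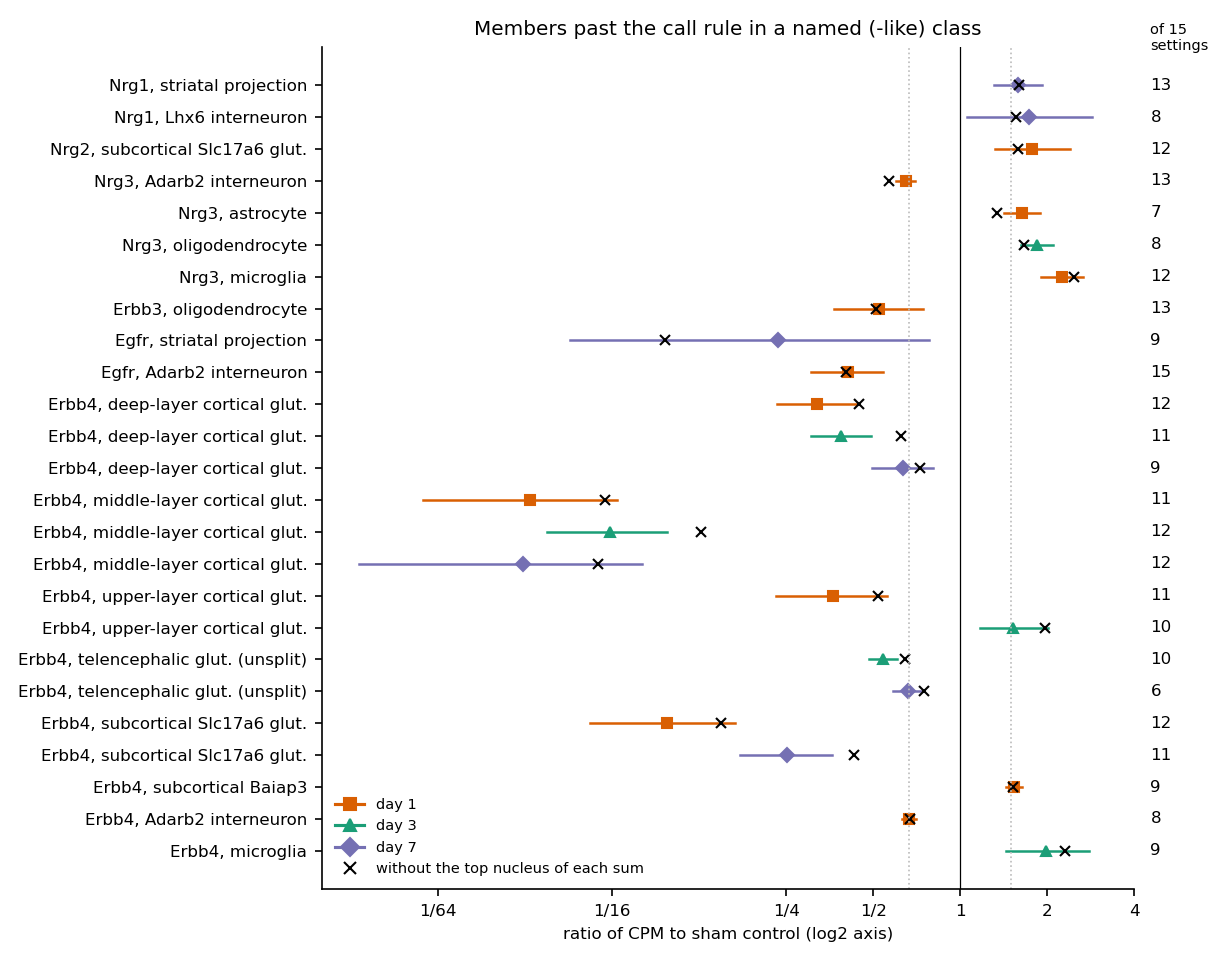
Ratio of CPM to sham control (log2 axis) with its 95% interval for the 25 member and class pairs past the call rule, coloured by day. Black crosses give the ratio without the nucleus that holds most UMIs of the gene in each sum, dotted lines mark 1.5-fold, and the numbers at the right count the settings, of 15, that kept the call. A setting that left no positive finite ratio counts there as not keeping the call. Egfr in Adarb2 interneuron-like nuclei at day 1 was kept in all 15.

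In Adarb2 interneuron-like nuclei 3 of the 4 members with enough UMIs were lower at day 1. Egfr went from 499 to 203 CPM, a ratio of 0.408 (0.305 to 0.542), at a background of 3.97% of genes called lower in this class. The share of nuclei with an Egfr UMI was 20 of 32 in sham control and 16 of 25 at day 1. After thinning it was 37.5% (21.1% to 56.3%, Clopper-Pearson) in sham control and 16% (4.54% to 36.1%) at day 1, and these intervals overlapped. At day 3 and day 7 the Egfr ratios were 0.804 (0.624 to 1.04) and 1.05 (0.783 to 1.41), neither past the rule. Egfr in astrocyte-like nuclei was not called on any day, with ratios of 0.760 (0.570 to 1.006), 0.960 (0.775 to 1.19) and 1.13 (0.889 to 1.44).

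In the same nuclei Erbb4 had a ratio of 0.663 (0.627 to 0.701) at day 1, and Nrg3 fell from 5284 to 3420.0 CPM, a ratio of 0.647 (0.6002 to 0.698). The Nrg3 call held in 13 of the 15 settings and the Erbb4 call in 8. Erbb4 lay at 0.840 when every nucleus counted equally and at 0.879 after thinning, both short of the rule. At day 7 the Erbb4 ratio was 0.697 (0.646 to 0.751), just inside the threshold and so not called, and at day 3 it was 1.007 (0.955 to 1.06).

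Other features of this class moved at day 1 as well. The summed level of its 18 markers was 16635, 10944, 19324 and 15389.6 CPM, and 3 of the 13 markers with enough UMIs were lower at day 1. The median UMIs per nucleus were 7584, 12834, 4996 and 6882. The class held 32, 25, 49 and 20 nuclei. The part of this composition and depth in the 3 ratios was not tested. In Lhx6 interneuron-like nuclei the Erbb4 ratios were closer to 1, at 0.846 (0.810 to 0.883), 1.04 (1.01 to 1.08) and 0.855 (0.822 to 0.890), and none was called. Those ratios mostly follow the Eya4-led cluster, which held 17512 UMIs against 1247 in the Sst-led one. In the Sst-led cluster, the level of 2051 CPM in sham control was above the 878, 1129 and 819 CPM of the following days, from 26, 9, 36 and 23 nuclei, and no ratio was computed for single clusters.

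In oligodendrocyte-like nuclei Erbb3 was lower at day 1 while Erbb4 was not. Erbb3 went from 115 UMIs in 320 nuclei to 47 UMIs in 161 nuclei, a ratio of 0.525 (0.366 to 0.743), at a background of 5.03% of genes called lower in this class. At day 3 and day 7 the Erbb3 ratios were 0.693 (0.527 to 0.911) and 0.725 (0.536 to 0.976), below 1 but under 1.5-fold. The share of nuclei with an Erbb3 UMI after thinning was 12.8% (9.35% to 16.98%) in sham control and 6.83% (3.46% to 11.9%), 11.1% (8.31% to 14.5%) and 11.5% (7.81% to 16.05%) on the following days. The day 1 call held in 13 of the 15 settings, failing only at a 2-fold rule and after thinning. Erbb4 ratios in the same nuclei were 1.02 (0.942 to 1.10), 1.15 (1.08 to 1.23) and 1.11 (1.03 to 1.19). The summed level of the 20 oligodendrocyte markers was 26548 CPM in sham control and 22380.5 at day 1, and 4 of the 19 markers read were lower then. Their part in the Erbb3 ratio was not tested.

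OPC-like nuclei showed no called member on any day. Their largest Erbb4 ratio was 1.26 (1.14 to 1.40) at day 7. Erbb3 there gave too few UMIs to be read at day 1 and day 7.

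Among the ligands, Nrg1 was higher in striatal projection neuron-like nuclei at day 7. Its levels were 68.8, 97.3, 81.5 and 109 CPM, from 230, 180, 261 and 213 UMIs. The ratios were 1.42 (1.16 to 1.73), 1.19 (0.989 to 1.42) and 1.59 (1.31 to 1.92), so that only day 7 was called, at a background of 2.61% of genes called higher in this class. The call held in 13 of the 15 settings. Of the 21 striatal markers none was called in either direction on any day. Egfr in these nuclei went from 22 UMIs to 3 by day 7, a called ratio of 0.233 (0.0447 to 0.777) beside 4.11% of genes called lower, with levels at or under the ceiling of up to 8.09 CPM. Nrg2 in the same nuclei had ratios of 0.960 (0.868 to 1.06), 1.14 (1.05 to 1.24) and 1.07 (0.971 to 1.18).

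The other ligand calls rested on less. Nrg1 in Lhx6 interneuron-like nuclei at day 7 had a ratio of 1.72 (1.06 to 2.86) from 28 and 47 UMIs, beside 2.54% of genes called higher, and was lost without the top nucleus (1.56). Nrg2 in Slc17a6 subcortical-like nuclei was higher at day 1, from 177 to 313 CPM (1.77, 1.32 to 2.39) beside 4.06% of genes, and was not called without the 3 nuclei with most UMIs (1.38). At day 3 and day 7 Nrg2 stood at 220.2 and 225 CPM there.

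Nrg3 was also called higher in 3 glial classes. In microglia-like nuclei it stood at 1170, 2623, 1159 and 1592 CPM, beside ceilings of 1064, 1203, 1108 and 1020.4 CPM in the same libraries. The 95% intervals of the day 1 and day 7 values lay above their ceilings, while those of sham control (1014 to 1343 CPM) and day 3 (1058 to 1268 CPM) took theirs in. The day 1 ratio was 2.24 (1.90 to 2.65), in a class where 9.03% of genes were called higher that day. Of the 529 UMIs at day 1, 406 lay in 3 of the 37 nuclei, and of the 202 in sham control 141 lay in 3 of 79. With the Nrg3 UMIs of the top 3 nuclei left out, the levels were 353, 610, 684 and 605 CPM, under the ceiling in every library. The ratio was 1.73, still called, without the top 3 nuclei of each library, but 1.48 in nuclei of at least 2000 UMIs and 1.18 after thinning, both not called. At that time the neuron genes that microglia should lack put free RNA at up to 63.8% of the UMIs of these nuclei, against 47.0% in sham control, and 10 of 20 microglial markers were lower. In astrocyte-like nuclei the day 1 ratio of 1.63 (1.42 to 1.89), beside 4.59% of genes, turned to 0.669 without the top 3 nuclei and to 0.968 when every nucleus counted equally. In oligodendrocyte-like nuclei the day 3 ratio was 1.84 (1.62 to 2.10), beside 5.53% of genes, and it was 1.33, no longer called, after removing 3 times the doublet share. In deep-layer-like nuclei, highest of the 13 classes in Nrg3, the ratios were 0.940 (0.913 to 0.969), 0.966 (0.941 to 0.992) and 0.962 (0.934 to 0.992).

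Most Erbb4 calls concerned glutamatergic neuron-like nuclei, where a few nuclei held much of the Erbb4. In middle-layer-like nuclei it went from 523 CPM in sham control to 16.98, 32.2 and 16.01, from 332, 8, 20 and 4 UMIs, beside 3.63%, 3.46% and 3.54% of genes called lower. Of the 332 UMIs in sham control, 195 lay in a single nucleus and 297 in 3 of the 70 nuclei. The remaining nuclei together had 60.7 CPM, under the ceiling of up to 96.2 CPM for this class. All 3 calls were kept without the top nucleus of each library (0.0590, 0.127 and 0.0556) and without the top 3 (0.115, 0.379 and 0.0726). Without integration they had no value. The 3 nuclei with most Erbb4 UMIs had 11513, 4605 and 954 CPM of Erbb4. Their summed GABAergic markers stood at 177, 350 and 290 CPM, against 62.5 CPM in the remaining nuclei. Those sums rest on few UMIs, and the pattern differed between classes. Deep-layer-like nuclei of sham control had 617, 259 and 191 CPM in their top 3 nuclei, against 40.8 in the rest. Upper-layer-like ones had 69.0, 54.6 and 29.5 CPM, against 58.9. At day 3 a telencephalic nucleus among the top 3 had 9007 CPM of oligodendrocyte markers, against 320 in the rest.

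Few nuclei weighed heavily in other classes too. In deep-layer-like nuclei, beside 3.31%, 4.04% and 4.43% of genes called lower, 150 of 196 sham control UMIs lay in 3 of 127 nuclei, and the ratios were 0.321, 0.387 and 0.634 on the 3 days. Without the top 3 nuclei of each library they were 0.557, still called, 1.20 and 0.892, and day 7 was not called without the top nucleus alone either (0.724). After thinning none of the deep-layer calls was kept, and the day 7 ratio changed direction (1.43). In Slc17a6 subcortical-like nuclei 72 of 118 sham control UMIs and 158 of 230 at day 3 lay in 1 nucleus each. Slc17a6 subcortical-like nuclei had ratios of 0.0965 at day 1 and 0.252 at day 7, beside 5.18% and 4.87% of genes called lower, and both calls were kept without the top nucleus (0.148 and 0.430) and without the top 3 (0.121 and 0.509). Both were lost after thinning (0.206 and 0.315), and day 7 also without integration (0.925). Telencephalic glutamatergic-like nuclei had 0.541 at day 3 and 0.661 at day 7, beside 3.94% and 5.01%. The day 7 call was kept in only 6 of the 15 settings, and was lost under both other scalings and without the top nucleus (0.748). The day 3 call was kept without the top nucleus (0.646) and lost without the top 3 (0.818) and with 3 times the doublet share removed. After thinning both telencephalic ratios changed direction, to 1.22 at day 3 and 1.57 at day 7. Upper-layer-like nuclei had 0.364 at day 1 (4.54% of genes lower) but 1.53 at day 3 (3.55% higher), from 82, 30 and 174 UMIs in sham control, day 1 and day 3. Without the top nucleus these ratios were 0.519 and 1.96, both called, and without the top 3 they were 0.745, not called, and 2.66. The day 3 call was lost without integration (0.989) and with 3 times the doublet share removed (1.24), and the day 1 call after thinning (0.519). Of the 12 Erbb4 calls in the 5 glutamatergic classes, 11 were lower than sham control. Many of the levels behind these calls lay under the ambient ceiling of their own library: all 3 days in middle-layer-like, day 1 and day 3 in deep-layer-like, day 1 and day 7 in Slc17a6 subcortical-like, and sham control and day 1 in upper-layer-like nuclei. Erbb4 at these levels could not be told from free RNA. With free RNA subtracted, 9 of the 12 calls, all but the telencephalic ones and deep-layer day 7, had no positive finite ratio. In these the subtraction emptied a sum. They were counted as not keeping the call, although an emptied sum against a filled one can still pass the rule. What the few nuclei with most Erbb4 UMIs are was not tested.

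**Figure D5:**
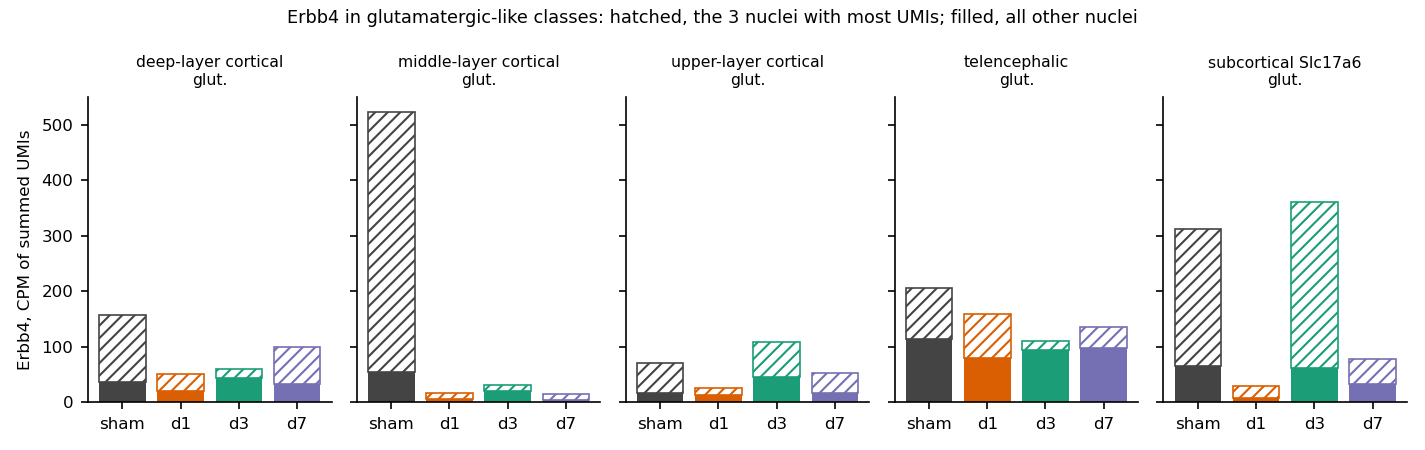
Erbb4 (CPM of summed UMIs, axis from 0) in the 5 glutamatergic neuron-like classes by library. The hatched part comes from the 3 nuclei with most Erbb4 UMIs and the filled part from all others. The filled part is at most 115 CPM in every class and library, and in middle-layer-like nuclei of sham control the 3 nuclei give 297 of 332 UMIs.

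Erbb4 was also called higher in Baiap3 subcortical-like nuclei at day 1. The level was 889 CPM in sham control and 1363, 1166 and 1235 CPM on the 3 days, well above a ceiling of up to 73.3 CPM. The day 1 ratio was 1.53 (1.44 to 1.64), beside 2.34% of genes called higher, and it fell short of the rule in 6 of the 15 settings, among them finer clusters (1.39), no integration (1.14) and leaving out the top 3 nuclei (1.40). In microglia-like nuclei Erbb4 stood at 266, 307, 529 and 189 CPM and was called higher at day 3 (1.99, 1.44 to 2.79), beside 6.28% of genes, with 165 of 218 UMIs in 3 nuclei, and the ratio was 0.861 after removing 3 times the doublet share.

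The wider pathway was read through 4 lists with 58 genes measured. Most other ligands of the family were scarce. Over the 13 classes Tgfa, an Egfr ligand, was highest in OPC-like nuclei at 111 to 222 CPM, and Hbegf in astrocyte-like nuclei at 12.9 to 23.8 CPM, while Areg, Ereg and Epgn reached means of at most 0.925 CPM in any class. Adam10 and Adam17, proteases that release ligands from the membrane, were highest in microglia-like nuclei, at 174 to 240.4 and 127 to 210.3 CPM. Bace1, which cleaves Nrg1, was highest in oligodendrocyte-like nuclei at 79.1 to 90.3 CPM.

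Many signal and brake genes had their highest means among the 13 classes in glia. Oligodendrocyte-like nuclei led for Gab1 (556 to 778 CPM) and Ptpn11 (283 to 309 CPM), a docking protein and a phosphatase recruited to active receptors, and for Erbb2ip (853 to 1028 CPM), which binds Erbb2. OPC-like nuclei led for the adaptor Shc4 (265 to 404 CPM) and the kinase Fyn (443 to 631 CPM). Astrocyte-like nuclei led for Lrig1 (233 to 329 CPM) and Spry2 (81.0 to 92.8 CPM), brakes on receptor signalling, and microglia-like nuclei for Gab2 (942 to 1237 CPM) and Cbl (197 to 268 CPM), a ubiquitin ligase that removes Egfr.

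Over the 13 classes, the adaptors and signal enzymes had 9 higher and 9 lower of 317 pairs read at day 1, 9 and 10 of 327 at day 3, and 13 and 11 of 309 at day 7. These shares were 2.84% higher and 2.84% lower at day 1, 2.75% and 3.06% at day 3, and 4.21% and 3.56% at day 7, under the background of all genes except for the higher calls at day 7. The brakes, turnover and anchor genes had 6 higher and 4 lower of 145, 3 and 4 of 151, and 5 and 5 of 139, or 4.14% and 2.76%, 1.99% and 2.65%, and 3.6% and 3.6%, again under the background except for the higher calls at day 7. The proteases had 0 higher and 1 lower of 43, 1 and 2 of 45, and 1 and 1 of 42, and the other ligands 1 and 0 of 15, 1 and 1 of 21, and 0 and 1 of 15. With so few pairs a single call moved these shares across the background: the proteases had 4.44% lower at day 3, and the other ligands 6.67% higher at day 1, 4.76% in each direction at day 3 and 6.67% lower at day 7, all above it, and their other shares were under it. The median log2 ratios were between -0.25 and 0.16, beside -0.06 to 0.00 over all genes.

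Some of these genes were called in the same direction in a class on at least 2 days. The days share the sham control library of each class, so a second call is not independent of the first, and on these days 2.79% to 9.5% of all genes were called in the class and direction concerned. In microglia-like nuclei Pik3r3, a regulatory subunit of PI3-kinase, was lower on all 3 days (98.4 CPM in sham control, then 24.8, 21.8 and 25.8), and Jak2 was higher at day 3 and day 7 (40.5 CPM, then 107 and 103). Stat5b and Tjp1 were lower there at day 1 and day 3. In Adarb2 interneuron-like nuclei Erbb2ip was lower at day 1 and day 3, with ratios of 0.588 (0.390 to 0.885) and 0.628 (0.405 to 0.966), and in OPC-like nuclei Dlg4, a synaptic scaffold that binds Erbb4, was higher at day 1 and day 3 from 5, 15 and 26 UMIs. Dlg4 had its highest mean in striatal projection neuron-like nuclei (130 CPM). Free RNA was up to 36.2%, 53.5% and 37.1% of OPC-like UMIs in sham control, day 1 and day 3. No ambient ceiling was computed for the pathway genes, and the part of free RNA in these calls was not tested. In middle-layer-like nuclei the adaptor Gab2 was higher at day 1 and day 3 (20.5 CPM, then 44.6 and 70.7) and Map2k2 at day 3 and day 7. In deep-layer-like nuclei Tgfa was lower at day 3 and day 7 (13.6 CPM, then 3.22 and 3.75) and Pik3cb at day 1 and day 3.

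Single cases stood in 5 further classes. Adam17 was lower in Slc17a6 subcortical-like nuclei at day 3 and day 7 (50.3 CPM, then 17.3 and 20.6), Map2k2 in Lhx6 interneuron-like nuclei on the same days, and Shc4 in telencephalic glutamatergic-like nuclei as well (13.5 CPM, then 3.96 and 7.82). Cntn2, a cell adhesion protein, was lower in Baiap3 subcortical-like nuclei at day 1 and day 7 (42.2 CPM, then 23.4 and 25.2), and Stat5b was higher in upper-layer-like nuclei on those days (33.0 CPM, then 52.7 and 67.0).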

How the data were processed

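The authors aligned reads with STAR 2.7.3a to GRCm38 (mm10) with GENCODE annotation, counted exonic and intronic reads, and deposited raw UMI counts for every barcode. From these counts nuclei were called by a re-implementation of the emptyDrops test (droplets over 1000 UMIs, 10000 draws, FDR 0.001), doublets were removed by Scrublet score (scanpy 1.11.5; 0.8% per 1000 nuclei), and clusters were made with Seurat 5.3.0 and sctransform 0.4.2 (2982 variable genes, 30 components, resolution 0.8, R 4.3.3), leaving out the members and pathway genes. The 30 clusters gave 24 named and 6 unnamed (607 nuclei). The naming thresholds were set after the clusters were seen. Levels are summed UMIs per class and library as CPM with exact Poisson intervals, ratios have exact conditional binomial 95% intervals, and shares Clopper-Pearson intervals. Ambient ceilings use genes that a class should lack and droplets of 1000 UMIs or fewer. The background removal in the study's methods (SoupX) was not applied. Members, gene lists and markers were chosen with earlier results of these data known. Named pathway genes are those called in a class on at least 2 days in 1 direction, of which 1 result is not reported here. Positions are from GENCODE vM21. Alternatives used edgeR 4.0.16 TMM factors. The call rule was tested on simulated data. With 1 library per group no test was possible. UMI totals per library set the precision, and a sum of 20 UMIs allows only large ratios to be called.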

Additional observations from a re-analysis of the deposited data

Results flagged for a closer look

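Nrg3 and Erbb4 were called higher in some classes and lower in others under the same contrast with sham control. The difference between classes was not tested. At day 1 the Nrg3 ratio was 0.647 in Adarb2 interneuron-like nuclei, 1.63 in astrocyte-like nuclei and 2.24 in microglia-like nuclei. At day 1 the Erbb4 ratio was 0.0325 in middle-layer-like, 0.0965 in Slc17a6 subcortical-like, 0.321 in deep-layer-like, 0.364 in upper-layer-like and 0.663 in Adarb2 interneuron-like nuclei, and 1.53 in Baiap3 subcortical-like nuclei. At day 3 it was 0.0615 in middle-layer-like, 0.387 in deep-layer-like and 0.541 in telencephalic glutamatergic-like nuclei, and 1.53 in upper-layer-like and 1.99 in microglia-like nuclei. In other settings the astrocyte-like Nrg3 ratio changed direction (down to 0.669). So did the day 3 Erbb4 ratios in microglia-like (0.861), upper-layer-like (0.989), deep-layer-like (1.20) and telencephalic glutamatergic-like nuclei (1.22). With 1 library per group no check for a library far from the others was possible.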

How the results depend on the processing

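The numbers of members called, 4, 3 and 2 higher and 8, 3 and 5 lower at day 1, day 3 and day 7, moved by more than 1.5 times in these cases. At a 2-fold rule they were 1, 0 and 0 higher, with 5 lower at day 1 and 3 at day 7. After thinning to 1000 UMIs they were 1, 1 and 0 higher and 3, 1 and 1 lower, with fewer pairs read. With every nucleus counted equally they were 2, 1 and 1 higher and 3 lower at day 7. Without integration 2 were higher at day 1 and 1 at day 7, but only 11 of the 13 classes had at least 20 nuclei in every library there. The 3 Erbb4 calls in middle-layer-like nuclei had no value in that setting. With 3 times the doublet share removed none (0) was higher at day 3. With free RNA subtracted 7 or 6 were lower at day 3, in proportion or as the same number of UMIs. Without the top nucleus 2 were lower at day 7. In settings chosen after the data were seen, leaving out the top 3 nuclei gave 1 higher and 13 lower at day 1 and 1 lower at day 3, and exchanging day 3 and day 7 gave 5 lower at day 3 and 3 at day 7. Of 344 values of single calls 8 changed direction: Erbb4 at day 3 in deep-layer-like (1.20 without the top 3 nuclei), microglia-like (0.861 with more doublets removed), upper-layer-like (0.989 without integration) and telencephalic glutamatergic-like nuclei (1.22 thinned), Erbb4 at day 7 in deep-layer-like (1.43) and telencephalic glutamatergic-like nuclei (1.57, both thinned), and Nrg3 at day 1 in astrocyte-like nuclei (0.968 with nuclei counted equally, 0.669 without the top 3). The causes were not tested. Of the 25 calls 1 held in every setting, 19 without the top nucleus and 13 without the top 3. A setting that left no positive finite ratio was counted as not holding a call. The leading group of nuclei was compared under 2 of the alternatives: by share of nuclei with a UMI after thinning Nrg2 led in the Npffr2-led cluster (28.5% against 27.4% in striatal projection neuron-like nuclei), with free RNA subtracted Nrg1 led in striatal projection neuron-like nuclei (126 against 116 CPM in deep-layer-like nuclei), and the leader of the other 5 members was the same under both. No paired analysis was possible because each group holds 1 library. Depth limited Erbb2, with 31 UMIs, and Erbb3 outside the oligodendrocyte lineage.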

Other observations

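Vascular and barrier cells lay outside the 13 classes because each had fewer than 20 nuclei in some library, and the Egfr in them was mostly in meningeal nuclei. Fibroblast-like meningeal nuclei had 301, 490, 808 and 731 CPM of Egfr, in the order of the libraries, from 16, 15, 101 and 43 UMIs in 14, 3, 29 and 16 nuclei, with a ceiling of up to 6.10 CPM. That is above the astrocyte-like level in each of the 4 libraries. Endothelial-like nuclei had 11 Egfr UMIs in 139 nuclei, none (0) at day 1, and mural-like nuclei had 8 in 40 nuclei, 6 of them at day 1 and 0 at day 3 and day 7. Ependymal-like nuclei, ciliated cells of the ventricle wall, held Nrg1 at 136, 12.4, 79.2 and 196 CPM from 15, 1, 9 and 15 UMIs in 15, 6, 20 and 7 nuclei, and Erbb4 at 326 to 645 CPM.

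Dentate granule-like nuclei had 5913 to 7562 CPM of Nrg3, in the range of the cortical classes, with 5, 18, 46 and 45 nuclei. The unnamed cluster led by Tshz2, Gm26883 and Vwc2l reached 7686 to 9527 CPM of Nrg3 in 46 nuclei, above deep-layer-like nuclei in every library.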
